A study of Mus musculus with 6 samples.

Results

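Nonsense-mediated decay (NMD) factors were followed through 6 genes, Upf1, Upf2, Upf3b, Smg1, Smg5 and Smg6, in MIN6 cells after TDP-43 siRNA and after control siRNA. The members were all probe sets that the platform annotation pairs with only 1 gene, where that gene is among the 6 symbols. This gave 12 of the 45101 probe sets on the array. They read 5 of the 6 genes: 1 probe set for Upf1, 2 for Upf2, 4 for Smg1, 2 for Smg5 and 3 for Smg6. Upf3b had no probe set named for it in the annotation used, so its level was not analysed here.

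NMD is a surveillance pathway that removes mRNAs whose translation ends at a premature stop codon, and it also sets the level of many normal transcripts. When a ribosome stops upstream of an exon junction complex, the helicase UPF1 is joined by UPF2 and UPF3B, is phosphorylated by the kinase SMG1, and then draws in SMG6, which cuts the mRNA, or SMG5, which couples it to decapping and deadenylation. In mammalian cells several NMD factor mRNAs are themselves NMD substrates, a feedback that raises them when the pathway is weak. TDP-43 is an RNA-binding protein that keeps cryptic exons out of mRNAs, and such exons often carry premature stops that send a transcript to NMD.

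MIN6 cells derive from a mouse insulinoma and make insulin. The TDP-43 siRNA group (n = 3) and the control siRNA group (n = 3) both received 100 pmol of siRNA by electroporation, and total RNA was hybridised to 1 mouse expression array per sample. The siRNA sequences are not given in the sources used here. Nothing in the labels places the 3 samples of a group in separate cultures, so the p-values measure only the spread between these samples, which may be technical.

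The targeted gene was lower on every TDP-43 siRNA array. The brightest probe set of Tardbp, which encodes TDP-43, read 2257, 2249 and 1836 after TDP-43 siRNA, against 3748, 3940 and 3699 after control siRNA. On the scale of log2 of the signal plus 12, used throughout, it differed by -0.85 (SE 0.09, limma adjusted p = 0.00216 over probe sets, 3 arrays a group). In the fit over genes its limma adjusted p was 0.00187, and it was 0.0608 without the intensity trend, with the difference unchanged. The other 4 probe sets of Tardbp lay between -1.41 and -0.86. Of 7 beta cell markers 5 had a probe set naming a single gene, and their summed signal lay between 43864 and 48433 on TDP-43 siRNA arrays and between 44765 and 46590 on control arrays. Of 11 markers of other cell types 10 had such a probe set and 3 passed the filter on low values (Sst, Col1a2 and Lyz2). The lowest value on every array was 1, and Ptprc read 1 on control replicate 2. The summed signal of all 10, with those left out by the filter, lay between 248 and 385 after TDP-43 siRNA. After control siRNA it lay between 159 and 350. Sst, the delta cell hormone somatostatin, read 97.3, 43.2 and 46.7 after TDP-43 siRNA, against 9.92, 42.1 and 23.3 after control siRNA. Col1a2, a fibroblast collagen, read 68.4, 41.5 and 58.6 after TDP-43 siRNA, against 71.2, 92.6 and 118 after control siRNA. The part of other cell types in the values below was not tested. Without control siRNA replicate 3 the number of changed genes over the whole array was 253, against 94 with all 6 arrays, and results below are given without that array where it moved them.

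None of the NMD factors changed past the threshold. Of the 12 member probe sets, 8 lay above the 40% with the lowest mean signal and were tested, covering Upf1, Upf2, Smg1, Smg5 and Smg6. By limma with Benjamini-Hochberg adjustment over 27022 probe sets, 0 of these 8 passed at 0.05, where 0.585% of all probe sets did. At an unadjusted p under 0.05 the count was again 0 of 8, where 11.3% of all probe sets passed. In 0 of 8 did the 3 TDP-43 siRNA arrays lie on one side of all 3 control arrays, a separation seen in 17.2% of all probe sets. Differences ran from -0.26 (Upf1) to 0.24 (Smg6), 4 above and 4 below 0, with a median of -0.04 beside 0.01 over all probe sets tested (log2, TDP-43 siRNA minus control siRNA). The adjusted p-values lay between 0.476 and 0.979. With each gene read by its brightest probe set, 0 of 5 genes passed over the 12619 genes tested, where 0.745% of all genes did. At an unadjusted p under 0.05 it was 0 of 5, beside 12.6% of all genes.

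**Figure D1:**
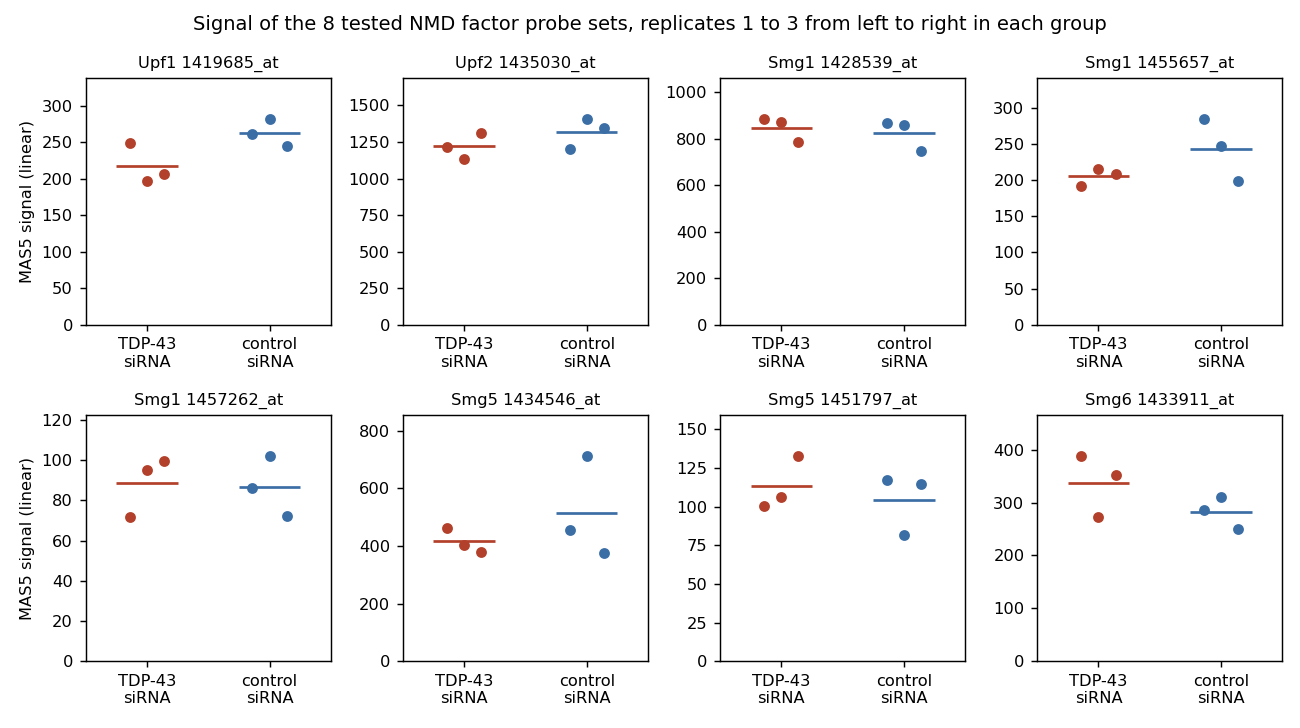
MAS5 signal on a linear scale from 0 for each of the 8 tested probe sets (1 panel each), with a point per array and a line at the group mean, TDP-43 siRNA left of control siRNA. The groups overlap in every panel; Smg5 1434546_at has 1 control array at 711, far above the other 5.

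UPF1 is the RNA helicase at the centre of the pathway, the protein on which SMG1, SMG5 and SMG6 act. Its single probe set, 1419685_at, read 249, 197 and 207 on the TDP-43 siRNA arrays, against 261, 281 and 244 on the control arrays. TDP-43 siRNA replicate 1 lay between control replicates 3 and 1, so the groups overlapped, while TDP-43 siRNA replicates 2 and 3 lay below all controls. The mean signal was 217 ± 27.7 after TDP-43 siRNA and 262 ± 18.5 after control siRNA (SD, n = 3 each). The log2 difference was -0.26 (SE 0.13, limma adjusted p = 0.476), and the unadjusted p of 0.067 was the smallest among the 8 probe sets. Its 95% confidence interval ran from -0.55 to 0.02, or from 0.685 to 1.02 times the control level on the scale of signal plus 12, which understates the change of dim probe sets. The difference stayed between -0.36 and -0.20 under the 17 alternative settings, and its adjusted p between 0.368 and 0.754.

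Promoter sequences of Upf1 and Smg5 are shown because these members had the lowest differences on their brightest probe sets. The windows hold the 250 bases before the gene's start (RefSeq, GRCm38.p6), written 5′ to 3′ on the gene's own strand. Capitals in the Upf1 window mark matches to GCGCANGCG on either strand, the core of the motif bound by the transcription factor NRF1. Capitals in the Smg5 window mark matches to TCGCGAGA on either strand, part of a CGCG element found in promoters of widely expressed genes.
Upf1, chr8:70353280-70353529, minus strand: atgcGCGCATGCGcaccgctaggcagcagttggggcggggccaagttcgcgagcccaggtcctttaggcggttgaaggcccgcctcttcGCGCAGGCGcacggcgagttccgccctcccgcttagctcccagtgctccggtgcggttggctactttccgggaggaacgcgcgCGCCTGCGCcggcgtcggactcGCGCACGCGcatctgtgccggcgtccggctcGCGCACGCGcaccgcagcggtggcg
Smg5, chr3:88336010-88336259, plus strand: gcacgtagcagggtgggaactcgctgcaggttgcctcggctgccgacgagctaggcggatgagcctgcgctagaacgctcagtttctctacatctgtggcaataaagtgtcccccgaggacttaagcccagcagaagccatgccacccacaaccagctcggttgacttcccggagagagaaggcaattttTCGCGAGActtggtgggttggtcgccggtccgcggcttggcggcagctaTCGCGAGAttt
Matches that overlap an earlier match to the same motif were not counted. The Upf1 window held 5 matches to GCGCANGCG, a motif present in 5.33% of the 27025 mouse promoters searched, and the Smg6 window held 1. The Smg5 window held 2 matches to TCGCGAGA, and that of Upf3b held 1, where 0.93% of promoters have any. GC boxes (GGGCGG, either strand) were found in 5 of the 6 members, Smg5 being the one without, and in 32.94% of all promoters. TATAAA was found in 0 of the 6 and in 12.97% of all promoters. The GC content of the windows ran from 56.8% (Upf3b) to 72.8% (Upf1), with a median of 52.0% over all promoters. The motifs were picked after the sequences were seen, and a match is a description of the letters only.

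UPF2 is the adaptor that links UPF1 to UPF3B and the exon junction complex. Its brighter probe set, 1435030_at, read 1218, 1131 and 1311 after TDP-43 siRNA, against 1201, 1404 and 1345 after control siRNA. The 2 ranges overlapped over most of their length, with the lowest array in the TDP-43 siRNA group and the highest in the control group. The log2 difference was -0.11 (SE 0.09, limma adjusted p = 0.700). It was -0.17 without control replicate 1, -0.06 without control replicate 2 and -0.06 without TDP-43 siRNA replicate 2. The 95% confidence interval ran from 0.810 to 1.06 times the control level, the narrowest of the 8 probe sets at 0.39 log2 units, beside a median width of 0.57 over all probe sets tested. The second probe set, 1445777_at, was dim, at 16.2, 15.0 and 29.8 after TDP-43 siRNA and 8.39, 25.8 and 3.81 after control siRNA, and was left out by the filter.

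SMG1 is the kinase of the PI3K-related family that phosphorylates UPF1. Its brightest probe set, 1428539_at, read 883, 874 and 785 after TDP-43 siRNA, against 866, 860 and 749 after control siRNA. The 2 groups had almost the same spread, and in each of them replicate 3 was lowest. The log2 difference was 0.04 (SE 0.09, limma adjusted p = 0.918), the 95% interval covered 0.892 to 1.18 times the control level, and the difference ran from -0.03 without control replicate 3 to 0.09 without TDP-43 siRNA replicate 3. The dimmer probe set 1455657_at read 192, 216 and 208 after TDP-43 siRNA, against 284, 247 and 199 after control siRNA. Here control replicates 1 and 2 lay above all TDP-43 siRNA arrays and control replicate 3 lay among them. That difference was -0.22 (SE 0.14, limma adjusted p = 0.618) with all arrays, -0.35 (limma adjusted p = 0.287) without control replicate 3 and -0.10 (limma adjusted p = 0.924) without control replicate 1. The dimmest tested probe set of Smg1, 1457262_at, read 71.4, 94.9 and 99.6 after TDP-43 siRNA, against 86.3, 102 and 72.3 after control siRNA. Its difference of 0.03 (SE 0.20, limma adjusted p = 0.979) was far smaller than its spread. With 1 array left out it ran from -0.08 without control replicate 3 to 0.16 without TDP-43 siRNA replicate 1. It was -0.16 without both arrays numbered 3. The last, 1442925_at, read between 7.36 and 33.6 after TDP-43 siRNA and between 16.2 and 45.8 after control siRNA and was left out by the filter.

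SMG5 binds phosphorylated UPF1 and couples it to dephosphorylation and to general mRNA decay. Its brighter probe set, 1434546_at, read 463, 403 and 381 after TDP-43 siRNA, against 454, 711 and 375 after control siRNA. Control replicate 2 stood alone at 711, and the other 2 control arrays fell among or next to the TDP-43 siRNA arrays. The SD of the log2 values was 0.14 after TDP-43 siRNA and 0.46 after control siRNA. The log2 difference was -0.25 (SE 0.20, limma adjusted p = 0.693), and its 95% interval covered 0.619 to 1.14 times the control level, the widest of the 8 at 0.88 log2 units. Without control replicate 2 it was 0.01 (limma adjusted p = 0.995), so its direction rested on that array, and without control replicate 3 it was -0.45 (limma adjusted p = 0.304). The dimmer probe set, 1451797_at, read 100, 106 and 133 after TDP-43 siRNA, against 117, 81.6 and 115 after control siRNA. On it control replicate 2 was the lowest of all 6 arrays, the reverse of its place on the brighter probe set. The difference there was 0.11 (SE 0.19, limma adjusted p = 0.883), and it ran from -0.04 without control replicate 2 to 0.19 without control replicate 1.

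SMG6 is the endonuclease that cuts the mRNA close to the premature stop codon. Its brightest probe set, 1433911_at, read 388, 273 and 353 after TDP-43 siRNA, against 286, 310 and 250 after control siRNA. TDP-43 siRNA replicates 1 and 3 were above all controls, and replicate 2 was within the control range. The mean signal was 338 ± 58.5 after TDP-43 siRNA and 282 ± 30.0 after control siRNA (SD, n = 3 each). The log2 difference of 0.24 (SE 0.14, limma adjusted p = 0.574) was the highest of the 8 probe sets, and its 95% interval covered 0.945 to 1.48 times the control level. Without TDP-43 siRNA replicate 2 it was 0.38 (limma adjusted p = 0.391), without TDP-43 siRNA replicate 1 it was 0.14, without control replicate 3 it was 0.16, and without both arrays numbered 3 it was 0.12. The other 2 probe sets were left out by the filter: 1445418_at averaged 39.7 after TDP-43 siRNA and 39.5 after control siRNA, and 1425883_at averaged 36.2 after TDP-43 siRNA and 35.2 after control siRNA.

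**Figure D2:**
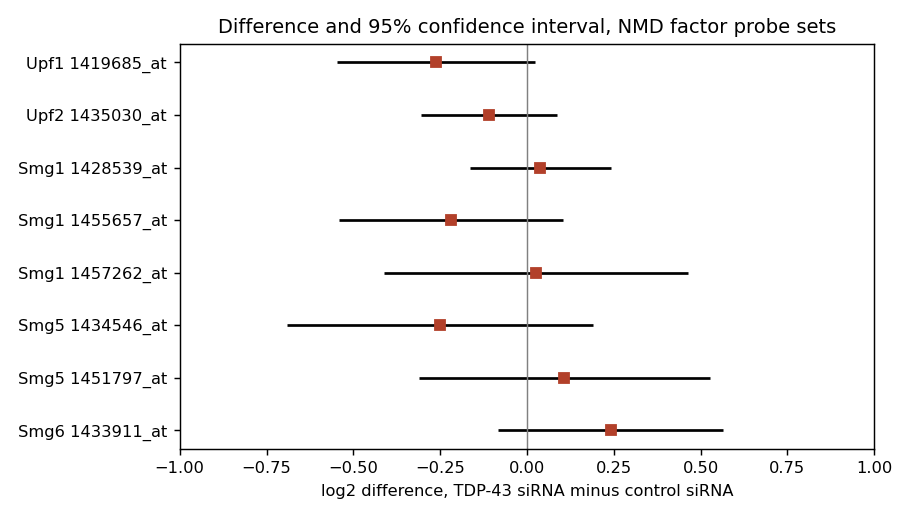
Log2 difference between TDP-43 siRNA and control siRNA (squares) with its 95% confidence interval (lines) for the 8 tested probe sets, ordered by gene. All 8 intervals include 0; that of Upf1 reaches from -0.55 to 0.02, and those of the brightest Upf2 and Smg1 probe sets are the narrowest.

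Each interval is an unadjusted range for a single probe set and rests on the spread between these samples, which may be technical. The intervals therefore do not give the size of change that the adjusted test could have missed. The lowest bound of any member was -0.69 (Smg5 1434546_at) and the highest was 0.56 (Smg6 1433911_at), on the log2 scale. For Upf2 and the brightest Smg1 probe set the intervals stayed within -0.30 to 0.24. Tested against each other, the probe sets of one gene did not differ in their change past the threshold. The dimmer Smg1 probe set 1455657_at changed by -0.26 relative to 1428539_at (SE 0.12, limma adjusted p = 0.763), 1457262_at by -0.01 (SE 0.17, limma adjusted p = 0.9997), and the dimmer Smg5 probe set by 0.36 relative to the brighter one (SE 0.36, limma adjusted p = 0.993). By limma 0 of these 3 pairs passed, and 0 of 3 at an unadjusted p under 0.05. Over the 10814 such pairs on the array 0% passed after adjustment and 7.19% at an unadjusted p under 0.05. With all 45101 probe sets less the controls tested and no filter, the 4 dim member probe sets had adjusted p-values between 0.778 and 0.997.

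Some arrays were the highest or lowest of their group for most members. Control replicate 2 was the highest of its group for 4 of the 5 genes on their brightest probe sets, all but Smg1, and control replicate 3 was the lowest for 4 of the 5, all but Upf2. In the TDP-43 siRNA group replicate 1 was the highest for 4 of the 5, all but Upf2. Over all 12619 genes these places fell to the same arrays for 32.7%, 34.2% and 35.5% of genes, and the order within a group was not tested over only 5 members. Averaged over the 5 genes, the log2 deviation from each gene's mean was 0.09, -0.14 and -0.06 in TDP-43 siRNA replicates 1, 2 and 3, and 0.00, 0.21 and -0.12 in control replicates 1, 2 and 3. Members differed within an array: in control replicate 2 Smg5 stood at 0.64 and the other 4 between 0.01 and 0.23, and in control replicate 3 Upf1 and Upf2 lay above 0 and Smg1, Smg5 and Smg6 below it. Within each group these means spanned more than the distance between the 2 group averages. Across the 6 arrays Upf1 and Smg5 followed each other most closely among the 10 pairs of members and Upf2 and Smg1 least (Pearson r = 0.72 and r = -0.54, as a description, with scaling and array shared).

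**Figure D3:**
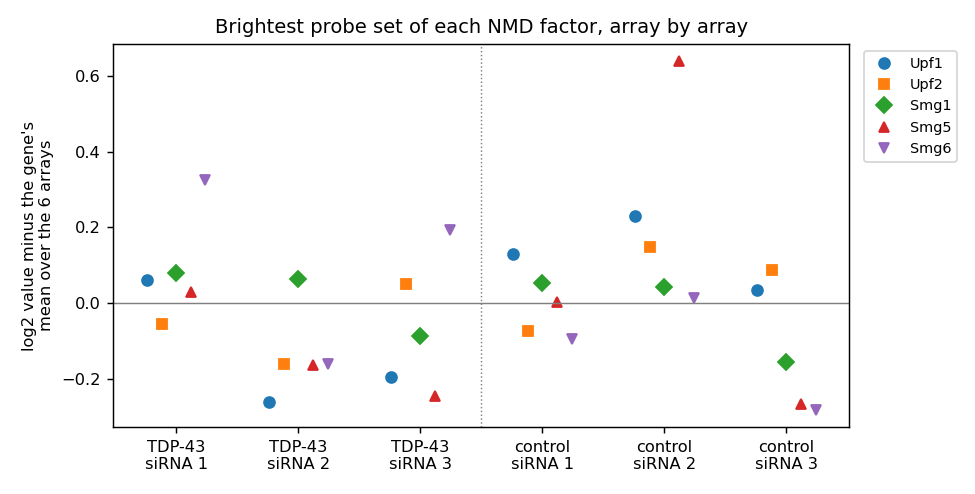
Log2 value of the brightest probe set of each of 5 NMD factor genes minus that gene's mean over the 6 arrays, by array, TDP-43 siRNA left of the dotted line and control siRNA right of it. Smg5 in control replicate 2 stands at 0.64, and the other points lie between -0.28 and 0.33.

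The genes whose brightest probe sets tracked a member most closely over the 6 arrays were Pqbp1 and Rab1b for Upf1, Lysmd4 and Hap1 for Upf2, Plekhh3 and Zfp748 for Smg1, Utp3 and Arhgap18 for Smg5, and Slc25a16 and Zfp39 for Smg6. Their Pearson correlations lay between 0.979 and 0.991 as a description. Each pair is the highest among the 12619 genes less those with predicted or clone-type names, over only 6 arrays. No gene served 2 members. Their own differences between the groups lay between -0.16 (Pqbp1) and 0.19 (Slc25a16).

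The genes around the members were described by lists for the other parts of the pathway, 111 genes in 8 lists. Of these, 103 had a probe set naming a single gene and 99 were tested. By limma 0 of 99 passed over all genes, 0 higher and 0 lower, where 0.745% of all genes passed. At an unadjusted p under 0.05 there were 12 of 99, or 12.1%, where 12.6% of all genes passed. Without control replicate 3, 3 of the 99 passed, or 3.03%, where 2.0% of all genes passed in that fit. These were Ddit3 at 0.62, the deadenylase subunit Cnot7 at 0.29 and Gadd45a at -0.35. With all 6 arrays Ddit3 was at 0.38 (SE 0.18, limma adjusted p = 0.409). It read 1838, 2144 and 2151 after TDP-43 siRNA, against 1459, 1200 and 2172 after control siRNA. The control array left out was thus the highest of the 6. In 14.1% of the 99 the groups did not overlap, beside 18.3% of all genes. The median difference was 0.01 in the 99 genes and 0.02 over all genes.

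The remaining NMD factors lay near no difference. All 7 tested lay between -0.11 and 0.14, with a median of 0.01. Groups that did not overlap were seen in 0 of 7, beside 18.3% of all genes. Smg8 and Smg9 encode the subunits that hold SMG1 inactive until it is recruited. Smg8 read 393, 336 and 356 after TDP-43 siRNA, against 297, 354 and 333 after control siRNA, with a difference of 0.14 (SE 0.11, limma adjusted p = 0.662). Smg9 was at -0.11 (SE 0.10, limma adjusted p = 0.707). The 12 genes of SMG1 assembly and UPF1 dephosphorylation had a median of -0.03, with 4 above and 8 below 0. The R2TP cochaperone subunit Pih1d1 was at -0.17 (SE 0.07, limma adjusted p = 0.369), and Rpap3, another R2TP subunit, was the lowest of the list at -0.40 (SE 0.19, limma adjusted p = 0.426). The PIKK-stabilising Telo2 was at -0.34 (SE 0.17, limma adjusted p = 0.431). The 5 other members of the kinase family of SMG1, among them Trrap, Prkdc, Mtor and Atr, had a median of -0.06, with 1 above and 4 below 0.

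The exon junction complex is the protein mark that splicing leaves on an mRNA and that UPF3B recognises. Of 14 genes listed for it and its partners, 11 had a probe set naming a single gene and 9 were tested. These 9 had a median of -0.11, with 3 above and 6 below 0, and cover only part of the list. The helicase Ddx39b, which loads export factors on spliced mRNA, was the lowest of them at -0.18 (SE 0.05, limma adjusted p = 0.189), the export adaptor Alyref was at -0.15 (SE 0.07, limma adjusted p = 0.411), and the core subunit Rbm8a was at -0.11 (SE 0.06, limma adjusted p = 0.458). In 3 of the 9, or 33.3%, the groups did not overlap, beside 18.3% of all genes. Among 9 genes of translation termination and cap binding the median was 0.05, with 7 above and 2 below 0, and in 4 of the 9, or 44.4%, the groups did not overlap. Gspt1, the release factor eRF3a that brings UPF1 to a terminating ribosome, read 2626, 2516 and 2205 after TDP-43 siRNA, against 3085, 3186 and 2812 after control siRNA. All 3 TDP-43 siRNA arrays were below all controls, and the difference was -0.31 (SE 0.08, limma adjusted p = 0.140). Its paralog Gspt2 was at -0.26 (SE 0.09, limma adjusted p = 0.277). The cytoplasmic poly(A)-binding protein gene Pabpc4 was at 0.20 (SE 0.06, limma adjusted p = 0.180).

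The enzymes that finish the decay showed no common direction. Of 28 tested, 15 lay above and 13 below 0 with a median of 0.02, among them Cnot7 at 0.23 (limma adjusted p = 0.186), the exosome helicase Skiv2l at -0.31 and the decapping subunit Dcp1a at -0.33. Genes of other decay pathways that use UPF1, among them the Staufen genes Stau2 and Stau1 and the histone mRNA-binding Slbp, had a median of 0.00 over 6 tested.

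Genes with transcripts reported elsewhere as sensitive to NMD did not move together either. Each was read by its brightest probe set, so NMD-sensitive forms of a transcript were not read apart from its other forms. Of 23 tested, 14 lay above and 9 below 0, with a median of 0.03 beside 0.02 over all genes, and 4 of 23, or 17.4%, had an unadjusted p under 0.05, beside 12.6% of all genes. Atf4, a stress transcription factor whose mRNA carries upstream reading frames, read 8022, 9618 and 9530 after TDP-43 siRNA, against 7353, 7303 and 8067 after control siRNA. The lowest TDP-43 siRNA array fell just under the highest control array, and the difference was 0.25 (SE 0.08, limma adjusted p = 0.189). Atf3 was at 0.33, Tbl2 at 0.20 and Gadd45a, a growth arrest gene, at -0.25 (limma adjusted p = 0.241). Gas5, a noncoding host of small nucleolar RNAs that is a classical NMD substrate, read 2360, 2465 and 2973 after TDP-43 siRNA, against 2499, 2446 and 3091 after control siRNA. It was picked out for that role and not by its values, and its groups lay on top of each other at -0.04 (SE 0.11, limma adjusted p = 0.916).

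**Figure D4:**
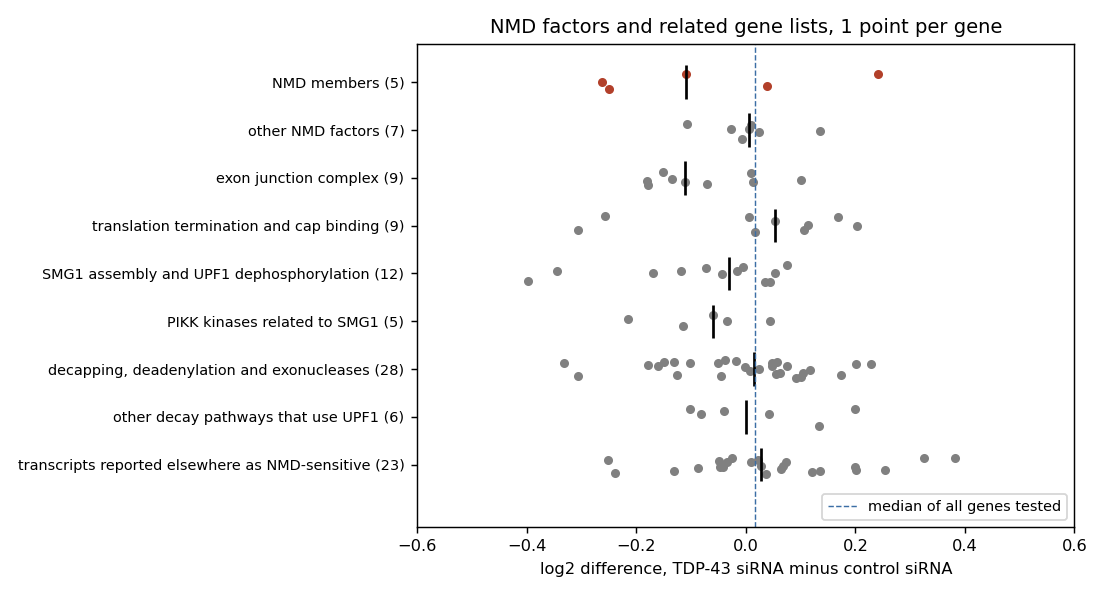
Log2 difference between TDP-43 siRNA and control siRNA for each tested gene of the NMD members (top row) and the 8 related lists, with a bar at each list's median and a dashed line at 0.02, the median of all genes tested. Numbers in brackets count the genes; every list spans 0.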

How the data were processed

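Expression was measured on 6 arrays of MIN6 cells, 3 after TDP-43 siRNA and 3 after control siRNA. The deposited values are signal intensity on a linear scale computed by the authors with MAS5 (per the submitters' processing notes; version not given in the sources used here). The mean of each array without its highest and lowest 2% was 500.003, and 34945 probe sets had 1 gene, 932 several and 9160 none in the platform annotation, beside 64 controls. Symbols were updated by Entrez number (34741 matched) with the RefSeq table of GRCm38.p6. Detection calls were not used, so signal over background is unknown, and precision is limited by the number of arrays. The value 12 was added before log2, and probe sets in the lowest 40% by mean signal across all arrays were left out. The 2 groups were tested two-sided in R 4.3.3 by limma 3.58.1, with eBayes allowing a trend in intensity and Benjamini-Hochberg adjustment over all features (threshold 0.05), over probe sets and again over the brightest probe set of each gene. List genes are given from the fit over genes. Where a gene had several probe sets, the log2 difference between them was fitted in the same way, without the trend. The steps were run on simulated data with independent noise for each probe set and planted changes larger than any seen in the members. How well smaller changes are called was not tested. Figures were drawn with matplotlib 3.10.9.

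The members, the lists and the alternatives were chosen with earlier results of these data known. Genes with predicted or clone-type names were left out of the ranking by correlation. The text names all members, up to 4 genes of a list by smallest p, and the 2 genes most correlated with each member. Ddit3 and Gas5 fall outside that rule: Ddit3 was named after its value was seen. Promoter sequences are from RefSeq, and all 6 members matched. Same-numbered arrays of the 2 groups had deviations from their group means correlated at -0.12, -0.14 and 0.24 over genes. The numbers were therefore not taken as pairs. TDP-43 siRNA replicate 1 correlated with control replicate 2 at 0.30, and TDP-43 siRNA replicate 2 with control replicate 1 at 0.23. All other differently numbered combinations lay between -0.18 and -0.08. The positive values thus join each array to a different array of the other group. A pairing across numbers was not tested.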

Additional observations from a re-analysis of the deposited data

How the results depend on the processing

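Under the 17 alternatives for probe sets and 18 for genes, 0 member probe sets, genes or probe set pairs passed. Over all probe set pairs on the array 0 passed in every one too, so the pair count says nothing particular to the members. Of 134 member values, refits of the same 8 probe sets, 0 passed the threshold, 7 had an unadjusted p under 0.05 and 8 turned sign. In the main fit 11.3% of all probe sets had an unadjusted p under 0.05. The values that turned were, for Smg1 1428539_at, -0.028 without control siRNA replicate 3 (range with 1 array left out -0.028 to 0.092); for Smg1 1457262_at, -0.023 without TDP-43 siRNA replicate 2, -0.054 without TDP-43 siRNA replicate 3, -0.083 without control siRNA replicate 3 (range -0.083 to 0.16) and -0.16 without both arrays numbered 3; for Smg5 1434546_at, 0.0055 without control siRNA replicate 2 (range -0.45 to 0.0055); for Smg5 1451797_at, -0.043 without control siRNA replicate 2 and -0.0017 without TDP-43 siRNA replicate 3 (range -0.043 to 0.19). The cause was not tested. Of the genes in the related lists, from 0 to 3 passed when 1 array was left out, and 2 passed without both arrays numbered 3 (Cnot7 and Gadd45a). Tardbp, at -0.85, had an adjusted p of 0.0608 without the intensity trend. The background count of genes was 94 and became 51 with no filter, 12 without the intensity trend, 161 with array weights, 61 with the mean of probe sets, 210 without both arrays numbered 3, and from 31 to 253 with 1 array left out. For probe sets it was 158 and became 69 with no filter, 0 without the intensity trend (2896 at an unadjusted p under 0.05), 241 without both arrays numbered 3, and from 56 to 325 with 1 array left out. With the replicate number as a block, 0 member probe sets, 0 member genes and 0 list genes passed, Tardbp stayed at -0.85, and the count of genes was 123. Signal over background was not available, so it is unknown how far the 4 dim member probe sets lie above it.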

Other observations

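Several genes of the related lists were read by more than 1 probe set. All 6 tested probe sets of the release factor gene Gspt1 lay below 0, from -0.31 to -0.01, and both of its paralog Gspt2 did, at -0.26 and -0.18. Both probe sets of Atf4 lay at 0.25, and the 4 of Tbl2 lay between 0.05 and 0.20. The 3 probe sets of Cnot7 lay between 0.13 and 0.27, and both of Pabpc4 at 0.20 and 0.22. The 3 probe sets of Ddx39b lay between -0.18 and -0.15. Those of 2 genes pointed in both directions: the decapping gene Dcp1a at -0.33 and 0.07, and Pih1d1 at -0.17, -0.16, 0.09 and -0.48. None of these passed the limma threshold over 27022 probe sets, and the genes were picked for an unadjusted p under 0.05, so their direction is a description.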
